A study of Mus musculus with 23 samples.

Results

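The genes described here repair damaged DNA, signal its presence to the cell cycle, or copy DNA at the replication fork. They were chosen by name from the count table of a neuroinflammation panel: 46 such genes were listed, 44 of them were found among the 770 genes of the table, and Ercc6 and Palb2 were not analysed here. The RNA came from the brain cortex of 23 WT mice of 12 wk, strain B6FVB, of the line CamKIIα-TTA/tetO-APP102 x FVB, and was counted with color-coded nCounter probes that tally RNA molecules without amplification. All 4 groups are WT mice of this cross, so none of them models the amyloid disease for which the line was made. The 8 Untreated mice had unmedicated chow and the 4 Dox mice had chow with 100 mg/kg doxycycline (dox) from postnatal day 3 to 6 wk, followed by 6 wk without it; both groups were injected with saline. The 5 LPS mice (no dox) and the 6 Dox+LPS mice (same dox course) received 2 mg/kg lipopolysaccharide (LPS, a bacterial cell wall component that sets off innate immunity) i.p. 18 h before harvest. Both sexes were present in every group, with 6 males of 8 in Untreated, 1 of 4 in Dox, 3 of 5 in LPS and 3 of 6 in Dox+LPS.

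DNA breaks and stalled forks are sensed by the kinases ATM and ATR, which mark chromatin and call on the checkpoint kinases, while lesions of single bases, crosslinks and mismatches are removed by dedicated enzymes. Replication fork proteins such as the MCM helicase, PCNA and the DNA polymerases serve S phase, and several also fill gaps during repair. In adult cortex most neurons no longer divide, and the dividing cells are mainly glia, their progenitors and vascular cells.

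Many replication genes carry sites for the E2F family, the transcription factors that switch on S phase genes, so the sequence just before the start of 3 members is shown here, from RefSeq on GRCm38. Mcm5 and Mcm6 encode subunits of the same helicase and both hold E2F motifs, in capitals below. Timeless, the member with the widest change after LPS that lay above background, is shown beside them and has no such motif in its 250 bases before the start. Mcm5 lies at chr8:75109349-75109508 on the + strand, Mcm6 at chr1:128359706-128359865 on the - strand and Timeless at chr10:128237906-128238065 on the + strand, each reading toward the start site over 160 bases.
Mcm5: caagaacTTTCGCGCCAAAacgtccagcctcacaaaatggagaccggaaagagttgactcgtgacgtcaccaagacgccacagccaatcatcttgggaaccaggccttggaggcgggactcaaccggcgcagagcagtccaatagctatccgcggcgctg
Mcm6: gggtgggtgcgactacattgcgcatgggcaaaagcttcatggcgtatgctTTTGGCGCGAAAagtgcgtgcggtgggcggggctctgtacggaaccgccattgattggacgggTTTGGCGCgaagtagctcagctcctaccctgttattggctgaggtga
Timeless: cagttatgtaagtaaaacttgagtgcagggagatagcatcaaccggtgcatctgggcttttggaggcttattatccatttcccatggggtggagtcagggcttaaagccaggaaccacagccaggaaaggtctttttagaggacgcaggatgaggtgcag
Of the 44 members, 37 had an entry of this kind, with 44 promoters between them. One or more of the E2F motifs TTTCCCGC, TTTGGCGC and TTTCGCGC, read on both strands so that matches may overlap, stood within 250 bases before 18.2% of the member promoters and 1.53% of all 32851 mouse promoters. The members with such a match were Chek2, Fancg, Mcm5, Mcm6, Mdc1, Nthl1, Topbp1 and Xrcc6. The motif CCAAT was found in 47.7% of member promoters and 33.8% of all, and the STAT motif TTCNNNGAA in 4.55% and 7.02%.

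Total panel counts per mouse ranged from 645971 to 804471. A count was taken as above background when it was over the background of that mouse, defined as the mean of its 8 negative control probes with 2 SD added, a level between 15.4 and 29.82 counts. In the instrument header lines the 11 mice given LPS shared stage position 1 and the 12 given saline shared stage position 2. In every LPS comparison below, this instrument batch and the injection cannot be told apart. Over the panel 2 mice stood apart. The acute-phase gene Lcn2 had 5449 normalized counts in LPS replicate 3 against 10667 to 11938 in the other LPS mice, and 733 in Untreated replicate 3 against 13.6 to 128 in the other Untreated mice. Without both mice the members that passed the test described below numbered 1 higher and 4 lower in LPS against Untreated. In Dox+LPS against Dox they numbered 3 higher and 5 lower. With all mice 22.9% of all 770 genes passed upward and 29.1% downward in the first comparison, and 24.7% and 31.3% in the second. The share of all genes without both mice is not given here. The markers were those of brain tissue, since all 8 neuronal, 4 astrocyte and 7 oligodendrocyte marker genes of the panel were above background in every mouse. They were not chosen to tell cortex from other brain regions, so the cortex label itself was not tested.

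Of the 44 members, 35 were above background in every mouse, 8 in some and 1 in none. The exonuclease gene Exo1 was the one never above background, and its fold is therefore not given. The homologous recombination genes Rad51b, Brca1 and Fancd2 exceeded background in 1, 4 and 5 of 23 mice. The helicase-nuclease gene Dna2 did so in 13 mice, the polymerase gene Pole in 18, the kinase gene Chek2 and the alkyl-transferase gene Mgmt in 21 each, and the kinase gene Chek1 in 22. Among the members above background in all mice the median coefficient of variation within groups was 10.5%, against 9.40% over the 572 panel genes of that kind. Counts of different genes are not set against each other here, because nCounter probes differ in efficiency.

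**Figure D1:**
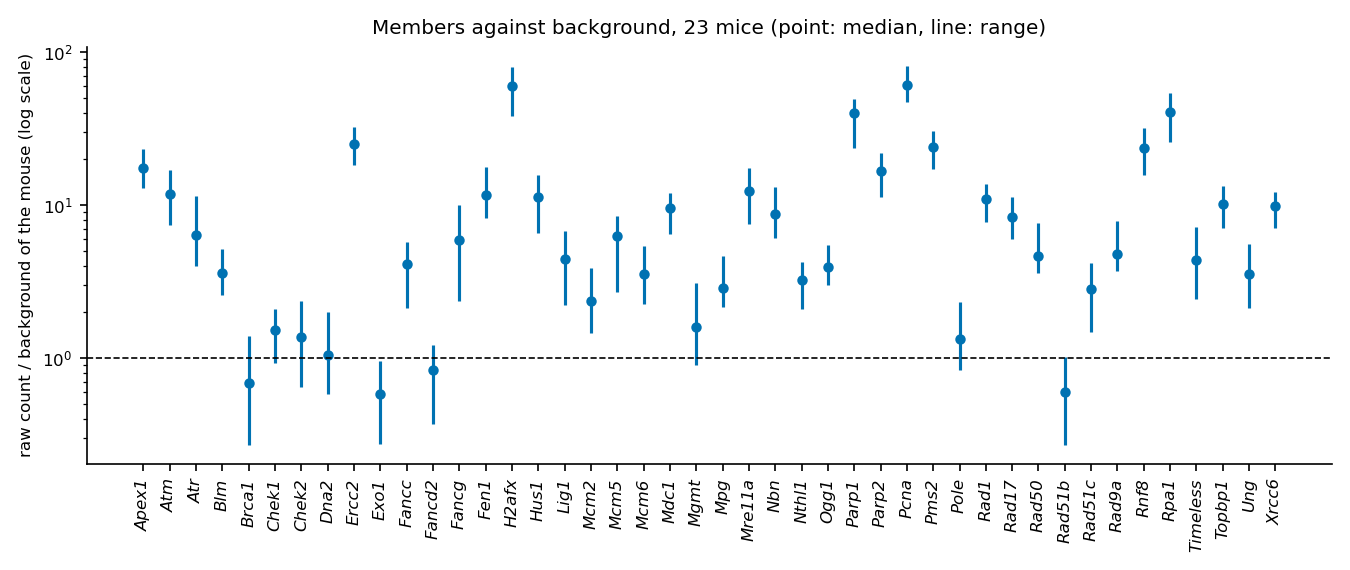
Raw count of each member divided by the background level of the same mouse, on a log axis, with the median (point) and range (line) over 23 mice and the members in alphabetical order. The dashed line is background; the whole range of Exo1 lies under it, and the medians of Rad51b, Brca1 and Fancd2 do too.

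With upper quartile scaling, Timeless was the only member to pass the test upward after LPS without earlier dox. Small falls passed in 5 members that sense or process damage. Counts were scaled to the upper quartile and tested with edgeR's quasi-likelihood test, and a gene passed the test at a Benjamini-Hochberg adjusted p under 0.05 over all 770 genes. In LPS against Untreated 1 member passed upward, where 22.9% of all 770 genes did, and 5 passed downward, where 29.1% of all genes did. Other scalings gave 3 to 5 members higher and 0 to 4 lower in this comparison, beside 194 to 215 and 80 to 202 of all genes. With the additional demand of an absolute log2 fold change above 0.5, 1 member was higher (16.8% of all genes) and 0 were lower (5.97% of all genes). After dox and washout, Dox+LPS against Dox had 3 members higher (24.7% of all genes) and 5 lower (31.3%). At the stricter demand 1 member was higher (19.5%) and 1 was lower (7.01%), the latter being Exo1. Averaged over both dox conditions the LPS effect passed in 4 members upward (28.2%) and 11 downward (37.1%).

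The member changes were narrow beside those of the panel. The median absolute log2 fold change was 0.12 over the members and 0.23 over all genes in LPS against Untreated, and 0.13 and 0.25 in Dox+LPS against Dox. The median signed change was -0.04 for members and for all genes in the first comparison, and -0.08 and -0.07 in the second. Both medians turned slightly positive under scaling to housekeeping genes or positive controls, so no direction of the members as a whole is given. Of the 44 members, 28 had the same sign in both comparisons, which share no mouse, against 650 of the 770 panel genes. The 6 members called in the first comparison and the 8 called in the second had H2afx and Timeless in common, 33.3% of the first list and 25.0% of the second. Over all genes the 400 and 431 calls had 338 in common, 84.5% and 78.4%.

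**Figure D2:**
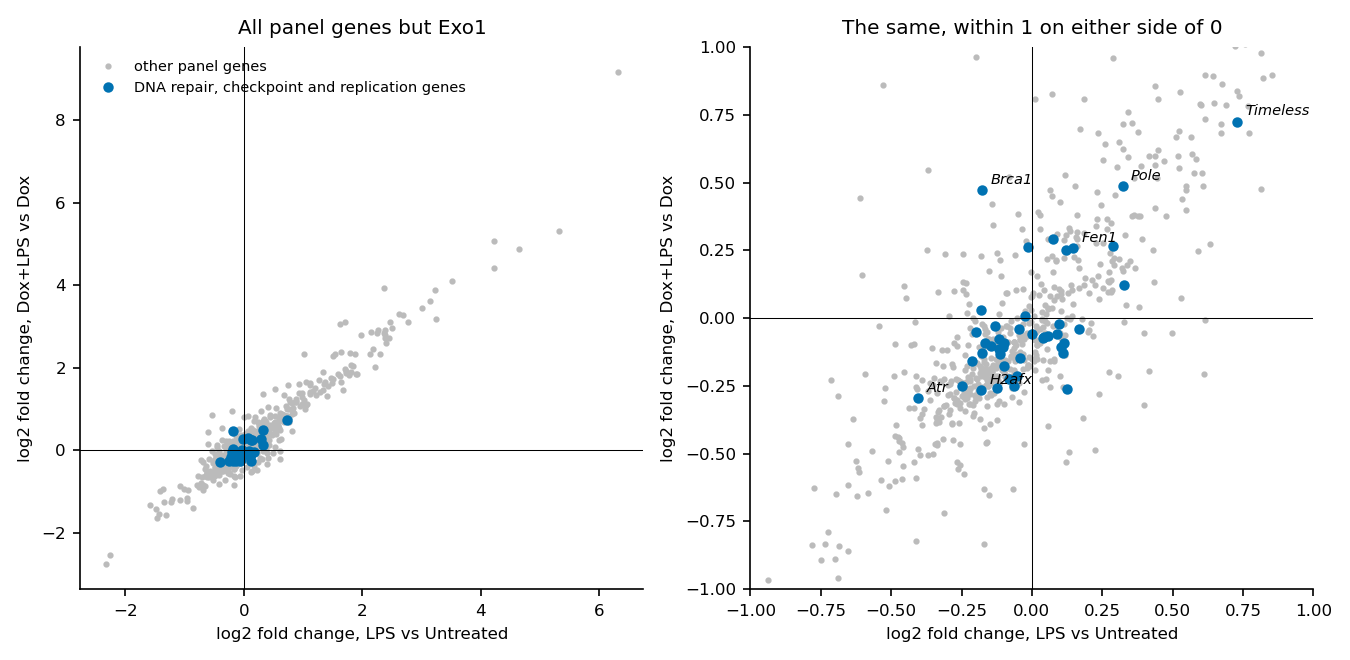
Log2 fold change of each gene in Dox+LPS against Dox (vertical axis) and in LPS against Untreated (horizontal axis), for the members (blue) and the other panel genes (grey), over the full range on the left and within 1 on either side of 0 on the right; Exo1 is left out. Timeless is the only member drawn that exceeds 0.5 on both axes, at 0.73 and 0.72.

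Among the checkpoint genes, Timeless stood alone. Its protein travels with the replication fork, supports ATR signalling to CHK1 and is a relative of a circadian clock protein of the fly. Timeless counts ran from 51.6 through a median of 71.2 to 74.8 in the 8 Untreated mice and were 72.3, 70.4, 68.96 and 61.8 in the 4 Dox mice. The LPS mice had 116, 117, 101, 113 and 119 counts, and the 6 Dox+LPS mice ran from 102 through 106 to 138. All 11 LPS-injected mice lay above all 12 saline-injected mice, a separation found in 19.5% of all genes and in no other member. In LPS against Untreated alone Timeless was likewise the 1 member without overlap, where 26.8% of all genes had none. The group means were 68.3 ± 8.06 (SD, n = 8) Untreated, 68.4 ± 4.57 (n = 4) Dox, 113 ± 6.89 (n = 5) LPS and 113 ± 14.2 (n = 6) Dox+LPS. Timeless rose 1.66-fold in LPS against Untreated, with a log2 fold change of 0.73 (SE 0.093, edgeR adjusted p = 4.93e-07). In Dox+LPS against Dox it rose 1.65-fold (log2 0.72, SE 0.11, edgeR adjusted p = 5.36e-06). The averaged LPS effect on Timeless was 0.73 with a 95% confidence interval from 0.58 to 0.87, and all 3 values kept their direction and passed the test under each of 16 alternative settings and with each mouse left out. LPS replicate 3, the mouse with low Lcn2, had the lowest Timeless count of its group, yet above every saline-injected mouse.

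The other checkpoint genes moved little or downward. Topbp1, which activates ATR at damaged sites, had 189, 210, 203 and 235 counts in the Dox mice and ran from 165 through 171 to 209 in the Dox+LPS mice. Of the 6 Dox+LPS mice 4 lay under all Dox mice, and Topbp1 fell by 0.22 on the log2 scale (SE 0.090, edgeR adjusted p = 0.0392), a call kept in 6 of 16 alternative settings (values from -0.37 to -0.09, adjusted p up to 0.455). It was lost without any of 7 single mice (Dox replicates 2, 3 and 4 and Dox+LPS replicates 3, 4, 5 and 6), at the widest without Dox replicate 4 (adjusted p = 0.162). Rad17, which loads the 9-1-1 clamp, ran from 151 through 174 to 189 in Untreated mice and had 143, 156, 154, 152 and 156 counts in LPS mice. The groups overlapped, since only 1 LPS mouse lay under all Untreated mice, and Rad17 fell by 0.18 (SE 0.070, edgeR adjusted p = 0.0327). The call was kept in 4 of 16 alternative settings, with values from -0.29 to -0.06 and adjusted p up to 0.643, and was lost without LPS replicate 1 or 4 (adjusted p = 0.0884 and 0.0579) and without Untreated replicate 4, 6 or 7 (0.0605, 0.0626 and 0.0653). In Dox+LPS against Dox its log2 fold change was 0.03, and in the average it did not pass. Hus1 and Rad1, subunits of that clamp, passed only in the averaged effect, in which they fell by 0.15 (edgeR adjusted p = 0.0375) and 0.12 (adjusted p = 0.0327). Leaving out single mice took these adjusted p to at most 0.121 for Hus1 (without Dox replicate 3, and lost without 7 further mice) and 0.0884 for Rad1 (without Dox replicate 3, and lost without LPS replicates 1 or 4 or Dox+LPS replicates 4 or 6). Rad9a, the third subunit, had an averaged value of 0.01, and the kinase genes Chek1 and Chek2 had -0.08 and -0.01, with adjusted p of 0.55 or more for the 3 genes.

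**Figure D3:**
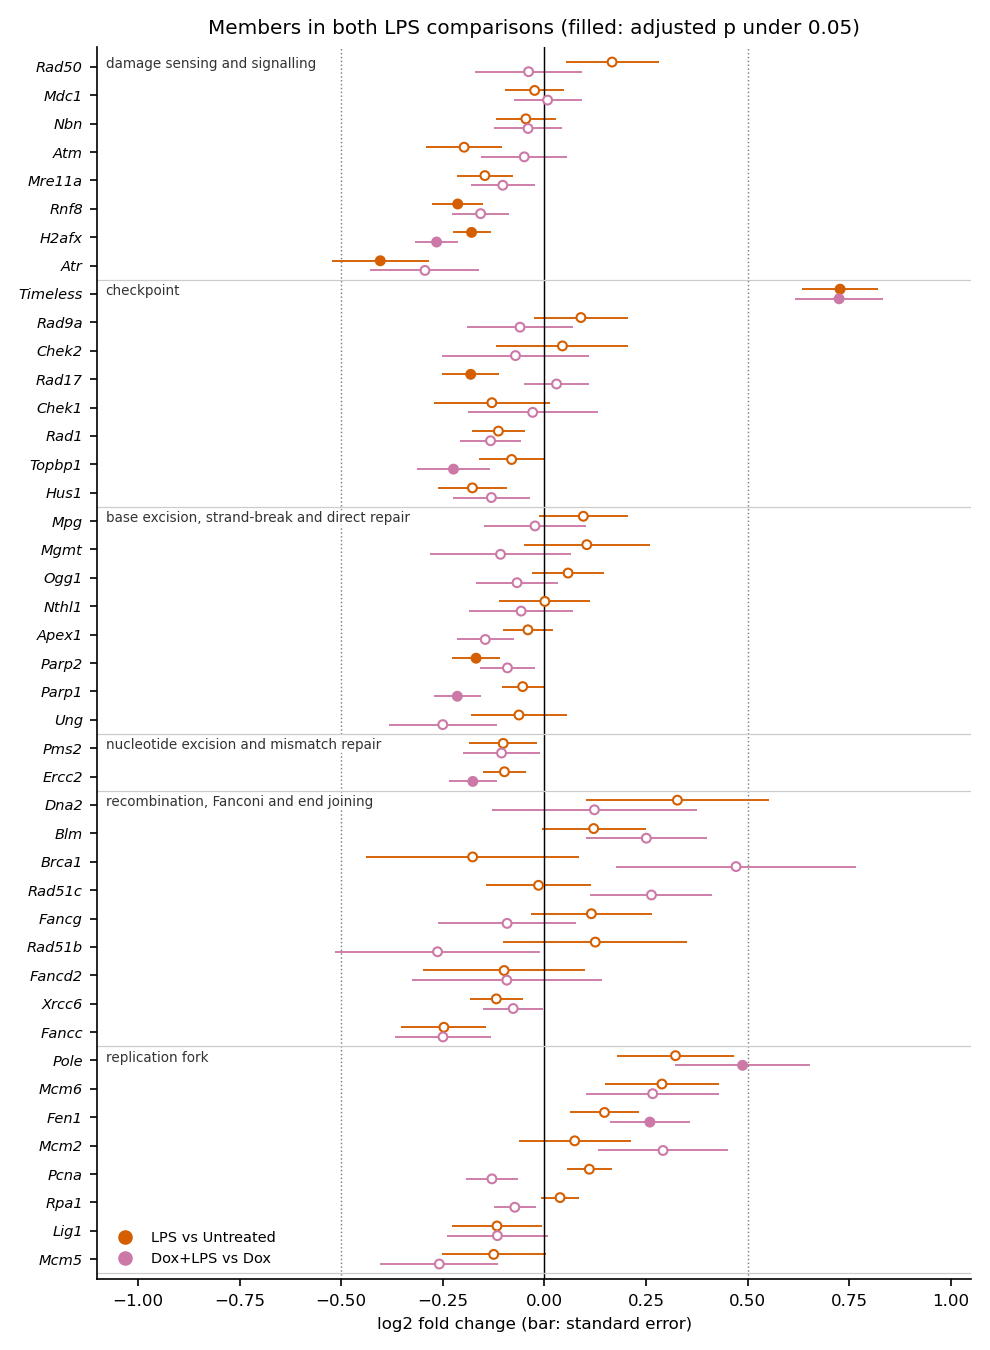
Log2 fold change (points) with its standard error (bars) of the members by role, in LPS against Untreated (orange) and Dox+LPS against Dox (pink); filled points passed the test at an adjusted p under 0.05 and dotted lines mark 0.5 on either side of 0. Exo1 is left out. Timeless lies beyond the right dotted line in both comparisons, and the filled points to the left of 0 lie between -0.40 and -0.17.

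Among the replication fork genes, Pole and Fen1 rose after LPS in dox-treated mice and Mcm6 joined them in the average, while the remaining 5 did not pass. Pole encodes the catalytic subunit of the leading-strand polymerase. It had 20.3, 23.5, 22.6 and 25.6 counts in Dox mice and ran from 25.2 through 31.7 to 43.6 in Dox+LPS mice. All but 1 of the Dox+LPS mice exceeded every Dox mouse, and Pole rose by 0.49 on the log2 scale (SE 0.17, edgeR adjusted p = 0.0156), with the call lost without Dox+LPS replicate 5 (adjusted p = 0.0686) or Dox replicate 1 (0.0515). Without dox, Pole ran from 18.4 through 24.3 to 32.0 in Untreated mice and had 34.6, 32.3, 28.2, 29.6 and 29.9 in LPS mice, a log2 fold change of 0.32 (SE 0.14, edgeR adjusted p = 0.0706). These counts lie close to background, which 2 of 4 Dox and 6 of 8 Untreated mice exceeded. The averaged Pole effect was 0.40 (SE 0.11, edgeR adjusted p = 0.00239).

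Fen1 encodes the flap nuclease that trims Okazaki fragments and also serves base excision repair. It had 235, 210, 233 and 223 counts in Dox mice and ran from 236 through 250.3 to 365 in Dox+LPS mice. The groups did not overlap, which 40.1% of all genes shared in this comparison, although the lowest Dox+LPS mouse lay within 2 counts of the highest Dox mouse. Fen1 rose by 0.26 (SE 0.098, edgeR adjusted p = 0.0280) and the call was lost without Dox replicate 2 (adjusted p = 0.0878) or Dox replicate 4 (0.0561). Without Dox+LPS replicate 1, the mouse at 365, its log2 fold change was 0.16 (adjusted p = 0.0691). In LPS mice Fen1 had 244, 218, 226, 258 and 266 counts, overlapping the Untreated range from 192 through 219.7 to 242 (log2 fold change 0.15, SE 0.086, edgeR adjusted p = 0.159).

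Mcm6, a helicase subunit, had 77.6, 115, 84.7, 71.7 and 71.1 counts in LPS mice against 54.7 through 68.9 to 82.1 in Untreated mice. It had 40.7, 57.6, 74.1 and 77.8 in Dox mice against 61.6 through 78.3 to 86.2 in Dox+LPS mice. Both pairs of groups overlapped, and only the averaged effect passed, at 0.28 (SE 0.11, edgeR adjusted p = 0.0277). The call was lost without Dox replicate 1 (adjusted p = 0.087), Dox replicate 2 (0.0566) or LPS replicate 2 (0.0772). Mcm5, the sister subunit whose promoter also holds the motif, had an averaged value of -0.19 (SE 0.097, adjusted p = 0.0851), and Mcm2 had 0.18 (SE 0.11, adjusted p = 0.131). The sliding clamp gene Pcna had -0.01, the single-strand binding protein gene Rpa1 -0.02 and the ligase gene Lig1 -0.12. Across the 8 members with an E2F motif the averaged values ran from -0.19 to 0.28, with Mcm6 passing upward and Topbp1 downward. Of the 29 members with a promoter entry but no such motif, 2 passed upward and 9 downward. Of all genes 28.2% passed upward and 37.1% downward in the average.

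**Figure D4:**
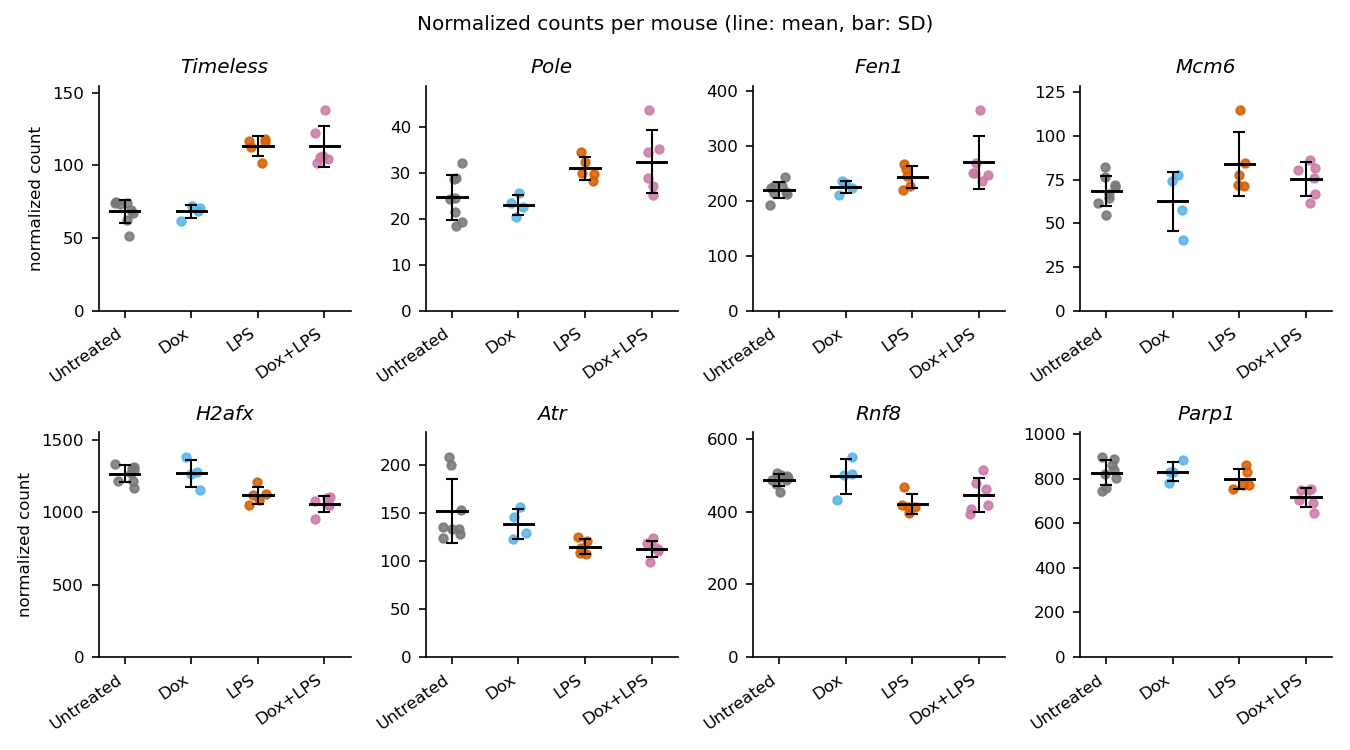
Normalized counts per mouse (points) by group for 8 members, with the group mean (line) and SD (bar); each panel has its own vertical axis from 0. Timeless separates all LPS-injected from all saline-injected mice, and 2 Untreated mice lie at 208 and 200 in the panel of Atr, above the others.

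Among the genes that sense and mark breaks, H2afx, Atr and Rnf8 fell after LPS. H2afx (H2ax in RefSeq) encodes the histone that is phosphorylated around breaks. Its counts ran from 1170 through 1284 to 1338 in Untreated mice and were 1123, 1085, 1207, 1125 and 1052 in LPS mice. In Dox mice they were 1263, 1386, 1279 and 1154, and in Dox+LPS mice they ran from 958 through 1063 to 1110. Of the 5 LPS mice 4 lay under every Untreated mouse, and the Dox+LPS mice lay entirely under the Dox mice. In the latter comparison 40.1% of all genes had no overlap. H2afx fell by 0.18 (SE 0.047, edgeR adjusted p = 0.00237) and by 0.27 (SE 0.052, edgeR adjusted p = 0.000145). The first call was lost with housekeeping scaling (adjusted p = 0.0732), with positive control scaling (-0.06, adjusted p = 0.413) and in males alone (0.0634), and the second with housekeeping scaling (-0.13, adjusted p = 0.086) and in males alone (-0.18, adjusted p = 0.201). The averaged fall of 0.22 (95% interval from -0.29 to -0.15) was the only lower call of a member that passed under all 16 alternatives and without each mouse.

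Atr encodes the kinase that answers stalled forks. It ran from 124 through 134 to 208 in Untreated mice and had 108, 124, 113, 120 and 107 counts in LPS mice. Of the 8 Untreated mice 6 lay between 124 and 153 and 2 at 200 and 208, and 4 of the 5 LPS mice lay under all of them. Atr fell by 0.40 (SE 0.12, edgeR adjusted p = 0.00653). The 2 high mice and the one at 153 are those whose mouse numbers belong to another series, and without these 3 the log2 fold change was -0.19 (adjusted p = 0.0766). Dox mice had 156, 146, 122 and 129 counts against 98.4 through 113 to 123 in Dox+LPS mice, and the log2 fold change was -0.29 (SE 0.13, edgeR adjusted p = 0.066). The averaged fall of Atr was 0.35 (adjusted p = 0.00151) and 0.24 without these 3 mice (adjusted p = 0.0015).

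Rnf8, a ubiquitin ligase recruited by phosphorylated histone and MDC1, ran from 455 through 491 to 506 in Untreated mice and had 417, 395, 467, 413 and 412 counts in LPS mice. All LPS mice but replicate 3 lay under every Untreated mouse, and Rnf8 fell by 0.21 (SE 0.062, edgeR adjusted p = 0.00602). In Dox+LPS mice the counts ran from 394 through 439 to 514 and overlapped the Dox counts of 433, 551, 500.2 and 502, with a log2 fold change of -0.16 (adjusted p = 0.06). Mre11a, the nuclease of the break-binding complex, passed only in the average, in which it fell by 0.12 (edgeR adjusted p = 0.0413), a call that 9 of the 23 single-mouse omissions kept. Its partners Nbn and Rad50 had averaged values of -0.04 and 0.06, the kinase gene Atm had -0.12 (adjusted p = 0.128) and the scaffold gene Mdc1 had -0.01.

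Among the genes of base excision and strand-break repair, both measured poly(ADP-ribose) polymerases fell, each in one comparison and both by 0.13 in the average. Parp1 had 828, 829, 883 and 780 counts in Dox mice and ran from 647 through 725 to 751 in Dox+LPS mice. The groups did not overlap, nor did those of 40.1% of all genes in this comparison. It fell by 0.21 (SE 0.058, edgeR adjusted p = 0.00330). In LPS mice Parp1 had 755, 828, 861, 769 and 770 counts, inside the Untreated range from 745 through 829.6 to 899 (log2 fold change -0.05, adjusted p = 0.409). Parp2, which shares the break-sensing role of Parp1, ran from 335 through 362 to 378 in Untreated mice and had 325, 306, 344, 282 and 341 in LPS mice. Of the 5 LPS mice 3 lay under all Untreated mice, and Parp2 fell by 0.17 (SE 0.059, edgeR adjusted p = 0.0198), a call lost without LPS replicate 4 (adjusted p = 0.0886) or LPS replicate 2 (0.0523). It was kept in 7 of 16 alternative settings, with values from -0.24 to -0.05 and adjusted p up to 0.67. The glycosylase genes Mpg, Nthl1, Ogg1 and Ung, the abasic site nuclease gene Apex1 and Mgmt did not pass, with averaged values from -0.16 for Ung to 0.04 for Mpg.

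Ercc2, the helicase of nucleotide excision repair and of transcription factor TFIIH, had 489, 555, 519 and 551 counts in Dox mice and ran from 415 through 479 to 507 in Dox+LPS mice. The groups overlapped, with 3 of 6 Dox+LPS mice under every Dox mouse, and Ercc2 fell by 0.18 (SE 0.059, edgeR adjusted p = 0.0142), a call lost without Dox replicate 2 or 4 (adjusted p = 0.0567 and 0.0514). The mismatch repair gene Pms2 had an averaged value of -0.10 (SE 0.063, adjusted p = 0.151). In the recombination and Fanconi anemia group Fancc, a subunit of the core complex for crosslink repair, fell by 0.25 in the averaged effect (SE 0.079, edgeR adjusted p = 0.00793). Its counts were 70.2, 72.2, 62.8, 77.4 and 78.2 in LPS mice against 69.9 through 89.3 to 97.4 in Untreated mice, and the groups overlapped. Exo1 passed in Dox+LPS against Dox, with normalized counts of 5.2 to 12.5 and 13.4 to 18.1 that were under background in all of these mice. The other 8 of the group did not pass in the average, with values from -0.10 for the end-joining gene Xrcc6 to 0.22 for Dna2.

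In the LPS effect averaged over dox, the number of falls depended on the scaling more than that of rises. In LPS against Untreated both moved, rises from 1 to as many as 5 and falls from 5 to as few as 0. In the averaged effect 4 members were higher and 11 lower with upper quartile scaling, 6 and 4 with TMM, 5 and 6 with RLE, 6 and 2 with housekeeping genes, and 6 and 1 with positive controls. The higher and lower calls over all genes were 217 and 286 with the upper quartile, 237 and 236 with TMM and 235 and 246 with RLE. They were 266 and 173 with housekeeping genes and 252 and 130 with positive controls. The median over all genes was -0.06 with the upper quartile and 0.05 with positive controls. No called member changed its direction under any scaling. Timeless, Pole, Fen1 and Mcm6 passed under all 5 scalings, and of the lower members H2afx alone did.

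**Figure D5:**
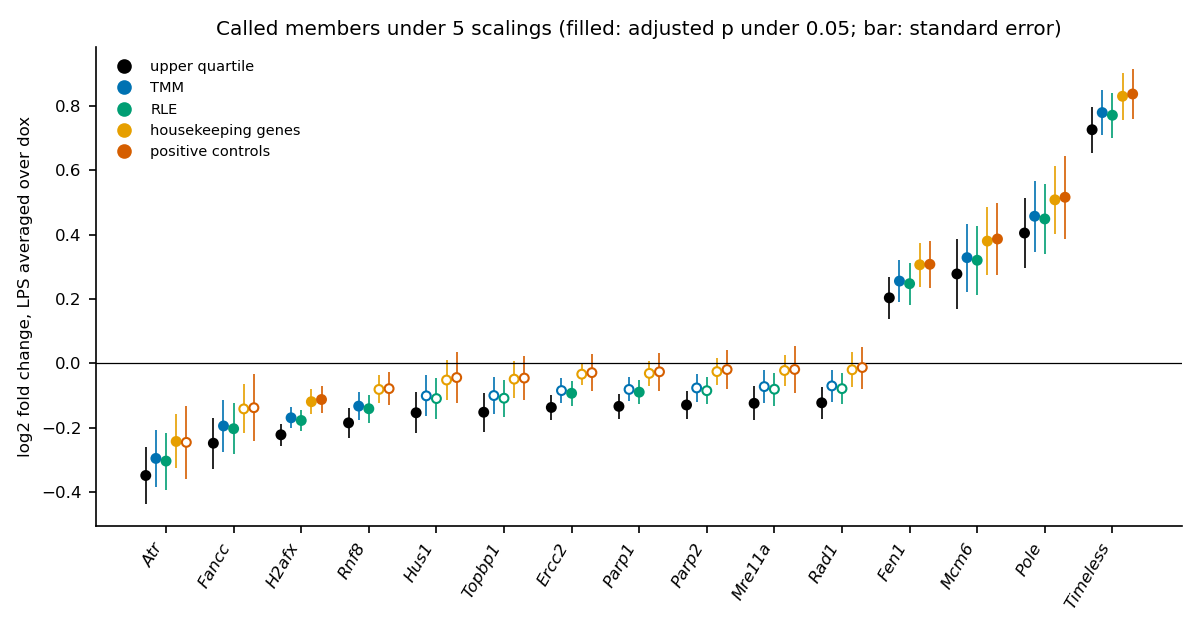
Log2 fold change (points) with its standard error (bars) of the 15 members that passed in the LPS effect averaged over dox, under 5 scalings; filled points passed the test. The rises of Timeless, Pole, Fen1 and Mcm6 are filled throughout, and H2afx is the only fall that is.

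Cell type markers moved with LPS as well. The summed normalized counts of the 8 neuronal markers ran from 46298 to 52319 in Untreated and from 40979 to 44700 in LPS mice, and those of the 7 oligodendrocyte markers from 24867 to 31135 and from 16142 to 18698. The 5 microglial markers summed to 3010 to 3465 and 1989 to 2795, and the 4 endothelial markers to 1517 to 2327 and 2127 to 2332. In Dox+LPS against Dox mice the neuronal sums were 38161 to 41874 and 44547 to 51495, the oligodendrocyte sums 16946 to 22003 and 27547 to 29054, the microglial sums 1351 to 2537 and 3126 to 3270, and the endothelial sums 1423 to 2276 and 1456 to 1580. Astrocyte markers (4 genes) summed to 13942 to 15170 in Untreated and 13440 to 15099 in LPS mice, which overlap, and to 13846 to 14498 in Dox+LPS mice, wholly under the 14927 to 15803 of Dox mice. Each sum leans on its genes with the highest counts, and genes of a list did not all move alike. In each comparison 1 astrocyte marker (Aldh1l1, log2 fold change 0.61 and 0.49) passed upward and 2 passed downward. Of the 5 microglial markers 3 passed downward, with P2ry12 at -2.26 and -2.54 but Cx3cr1 at -0.02 and -0.18. Of the 4 endothelial markers 3 passed upward, while Tie1 had -0.26 and -0.31 and passed downward only in the average. Of the 4 neutrophil and monocyte markers, Csf3r was above background in 8 of 8 Untreated, 4 of 4 Dox, 5 of 5 LPS and 5 of 6 Dox+LPS mice. Fpr1 was so in 4 of 5 LPS and 6 of 6 Dox+LPS mice and in 0 Untreated and 0 Dox mice. Ccr2 was so in 1 Untreated and 1 LPS mouse, and Ly6g in 0 mice. These sums thus hold many counts under background. The 4 markers summed to 53.02 to 93.2 in Untreated and 77.6 to 109 in LPS mice. In Dox mice they summed to 66.1 to 79.98 and in Dox+LPS mice to 84.2 to 112, without overlap. In bulk tissue, fewer cells of a type and less RNA per cell cannot be told apart, and the part of these shifts in the member results was not tested. The proliferation markers Top2a and Birc5 summed to 52.0 to 74.8 counts in Untreated and 36.7 to 64.9 in LPS mice, and to 49.7 to 54.6 in Dox and 38.2 to 57.7 in Dox+LPS mice. Neither was above background in every LPS mouse. Birc5 exceeded it in only 5 of 8 Untreated, 0 of 4 Dox, 1 of 5 LPS and 0 of 6 Dox+LPS mice. Top2a did so in 8 of 8, 4 of 4, 4 of 5 and 5 of 6. Top2a fell by 0.53 in LPS against Untreated (edgeR adjusted p = 0.0116) and had a log2 fold change of -0.31 in Dox+LPS against Dox (adjusted p = 0.193).

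Genes around the members, from a list of other repair genes and a list of p53, arrest and cell cycle genes, give the setting. Of 42 other repair genes 6 were on the panel and the cohesin gene Smc1a passed, falling by 0.12 (edgeR adjusted p = 0.0292) in LPS against Untreated and by 0.21 (adjusted p = 0.00117) in Dox+LPS against Dox. Of 34 p53, arrest and cell cycle genes 22 were present, and 4 passed upward and 4 downward in the first comparison, 4 and 7 in the second. Of all genes 22.9% passed upward and 29.1% downward in the first comparison, and 24.7% and 31.3% in the second. Cdkn1a, which encodes the cell cycle inhibitor p21, rose by 1.82 and 2.08 on the log2 scale, Myc by 0.65 and 0.79 and Sesn1 by 0.48 and 0.38. Not every gene that passed is named here, and the list did not move alike. Bbc3 had 0.27 and 0.10, Bax 0.05 and -0.22 and Mdm2 -0.12 and -0.05. Tgfbr1 fell by 0.70 and 0.89 and Ccni by 0.22 and 0.28. Gadd45a fell by 0.38 and 0.33, and Top2a, the fourth lower gene of the first comparison, did not pass in the second.

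For early dox no member passed the test at 12 wk. In Dox against Untreated 0 members passed (0% of all genes), with 2 members and 41 genes at an unadjusted p under 0.05 and 0 members by DESeq2. The smallest p were those of Mre11a, at -0.17 (95% interval from -0.33 to -0.02), and Mdc1, at -0.17 (from -0.33 to -0.01), both with an edgeR adjusted p of 0.811. Mre11a had 226, 233, 237 and 239 counts in Dox mice against 227 through 267 to 291 in Untreated mice, so that the groups overlapped. Timeless differed by 0.00 (from -0.22 to 0.22), and the median 95% interval of a member reached 0.24 on either side of its value.

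In Dox+LPS against LPS 0 members passed (0% of all genes), with 4 members and 102 genes at an unadjusted p under 0.05 and 0 members by DESeq2. Parp1 had the smallest p, at -0.16 (95% interval from -0.27 to -0.04, edgeR adjusted p = 0.251), and its 6 Dox+LPS mice lay under all 5 LPS mice, a separation found in 1.82% of all genes. Timeless differed by 0.00 (from -0.20 to 0.20). In the interaction of LPS and dox 0 members passed (0% of all genes), with 2 members and 69 genes at an unadjusted p under 0.05 and 0 members by DESeq2. The member with the smallest p was Pcna, at -0.24 (from -0.41 to -0.07, edgeR adjusted p = 0.364). Its means were 1201 ± 87.1 (n = 8) Untreated, 1298 ± 51.0 (n = 4) Dox, 1296 ± 43.4 (n = 5) LPS and 1188 ± 112 (n = 6) Dox+LPS. The interaction for Timeless was 0.00 (from -0.30 to 0.29), and those for Atr (0.11), H2afx (-0.09) and Parp1 (-0.16) did not pass, so a call in one LPS comparison alone does not show that the responses differed.

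Between the sexes, with the group as a covariate, 0 members passed (0.519% of all genes). One member, the helicase gene Blm, had an unadjusted p under 0.05, at -0.21 in females relative to males (95% interval from -0.40 to -0.01, edgeR adjusted p = 0.644).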

How the data were processed

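Counts per probe came from the nCounter Mouse Neuroinflammation panel, run by the manufacturer's laboratory. The authors deposited these values as exported, without normalization, and they are recorded as estimated counts; every probe value is whole, and only instrument header lines of the table hold decimals. One further column (1 in all) matched no sample and was left out. The authors' normalized values of the same mice (upper quartile and RUVg) were not used here. Groups follow the labels. Counts of 770 genes were scaled to the upper quartile and fitted with a mean per group over 23 mice in R 4.3.3 with edgeR 4.0.16 (quasi-likelihood test), with Benjamini-Hochberg adjustment. The methods name the likelihood ratio test with a log2 fold change threshold of 0.5. For normalized counts each count was divided by the scaled library size of its mouse, taken relative to the mean of all mice. Replicates are numbered in accession order. Members and lists were chosen with earlier results of these data known. Every member is accounted for by role; those with an adjusted p under 0.05 in any comparison are named with values, as are those under background in most mice. Marker lists covered neurons, astrocytes, oligodendrocytes, microglia, endothelial cells, neutrophils and monocytes, and proliferating cells. Alternatives were other scalings, limma-voom (limma 3.58.1), DESeq2 1.42.0, edgeR's likelihood ratio test, RUVg factors, a low-count filter, background subtraction, sex, other thresholds and each mouse left out. The test was tried on simulated data for LPS against Untreated alone, with fewer changed genes than passed in the data. A larger share of calls there was false than the adjusted p allows. Calls may thus be less certain than their adjusted p states, those near the threshold included.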

Additional observations from a re-analysis of the deposited data

Results flagged for a closer look

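Fen1 had a normalized count of 365 in Dox+LPS replicate 1, against 236 to 269 in the other 5 mice of the group. The gap to the nearest mouse was 0.745 of the whole range of the group, above the limit of Dixon's test for 6 samples. It was the only one of 68 groups tested, over 17 members, and chance alone marks about 1 in 20 groups.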

How the results depend on the processing

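The same direction was kept by every called member in all 16 alternatives and with each of the 23 mice left out, Exo1 in the 15 alternatives that could test it. The number of members called was less stable. In LPS against Untreated, the 1 higher and 5 lower members became 4 and 3 with TMM, 5 and 2 with housekeeping scaling and 5 and 0 with positive control scaling, 2 and 3 with DESeq2, 2 and 0 in males alone; higher members were 3 with RLE, 2 with sex as a covariate and 2 in females alone, and lower members were 2 with 1 or 2 RUVg factors and 2 without the Untreated mice of another number series. In Dox+LPS against Dox, the 3 higher and 5 lower members became 7 and 1 with housekeeping scaling and 1 and 0 in males alone; higher members were 1 in females alone, and lower members were 3 with TMM, 3 with RLE, 2 with positive control scaling, 2 with DESeq2 and 8 with the low-count filter. In the averaged effect the 4 higher members became 1 in males alone, and the 11 lower became 4 with TMM, 6 with RLE, 2 with housekeeping scaling, 1 with positive control scaling, 6 with DESeq2, 7 with 1 or 2 RUVg factors and 1 in males alone. Males alone leave 1 Dox mouse, which is assumed to vary like the other groups, so these values say little about Dox+LPS against Dox or the average. Calls over all 770 genes shifted with the scaling as well. In LPS against Untreated 176 were higher and 224 lower with the upper quartile, and 197 and 192 with TMM. They were 194 and 202 with RLE, 207 and 158 with housekeeping and 215 and 80 with positive control scaling. In Dox+LPS against Dox they were, in the same order, 190 and 241, 210 and 180, 209 and 183, 235 and 107, and 198 and 100. Counts over all genes for the remaining settings and omissions are not given here. The cause of these shifts was not tested.

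At an adjusted p under 0.1, members higher and lower were 3 and 9 in LPS against Untreated, and 10 were lower in Dox+LPS against Dox. At 0.01, 3 were lower in LPS against Untreated, 1 was higher and 3 were lower in Dox+LPS against Dox, and 6 were lower in the average. With the fold threshold, 0 were lower in LPS against Untreated, 1 was higher and 1 lower in Dox+LPS against Dox, and 1 was higher and 0 lower in the average. With each mouse left out in turn, counts of higher and lower members ran from 1 to 2 and from 4 to 7 in LPS against Untreated, from 2 to 4 and from 3 to 9 in Dox+LPS against Dox, and from 3 to 5 and from 8 to 12 in the average; they stayed at 0 in all 3 dox comparisons. The 2 higher members in LPS against Untreated came without Untreated replicate 4, Untreated replicate 5 or Dox+LPS replicate 1; the lower members in Dox+LPS against Dox were 3 without Dox replicate 2 or 4 and 9 without Dox+LPS replicate 1. Of the 16 alternatives, the lower calls in LPS against Untreated were kept in 13 for Atr and H2afx, 12 for Rnf8, 7 for Parp2 and 4 for Rad17; those in Dox+LPS against Dox in 14 for H2afx, 13 for Parp1, 10 for Ercc2 and 6 for Topbp1; and the averaged lower calls in 6 for Mre11a and Rad1 to 16 for H2afx. The calls lost when some single mouse was left out were those of Parp2 and Rad17 in LPS against Untreated, of Ercc2, Fen1, Pole and Topbp1 in Dox+LPS against Dox, and of Hus1, Mcm6, Mre11a, Rad1 and Topbp1 in the average. The setting without both mice that stood apart over the panel was chosen after seeing the data. No paired analysis was possible because the labels give no numbers that pair mice across groups. With the highest negative control as background, 36 members were above it in every mouse, 7 in some and 1 in none. Members close to background, Exo1, Rad51b, Brca1 and Fancd2 above all, are limited by that background rather than by the number of mice alone.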
